A study of Mus musculus with 12 samples.

Results

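Libraries labelled as germ cell-like cells made in culture from parthenogenetic stem cells (pESC-PGCLCs, 2 libraries) were compared with those of primordial germ cells taken from mouse embryos at embryonic day 9.5 (E9.5 PGCs, 2 libraries) by DNA methylation level. The features compared were the 142249 with a level in all 4 libraries, out of 176831 with a level in any of the 12 libraries of the series. A level is the percentage of CpG sites read as methylated in a feature, measured by reduced representation bisulfite sequencing, which reads the CpG-dense fragments left by the enzyme MspI. The features fell into 8 overlapping classes, and each gene part carried 1 value per gene. Words such as "fall", "rise", "kept" and "then" set the pESC-PGCLC level against the E9.5 PGC level. They describe no change in time, since neither group was made from the other.

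The labels give C57BL6 as the strain of all 12 samples. By the study's methods, the parthenogenetic embryonic stem cells (pESCs) came from oocytes of mice carrying a β-Actin-GFP transgene that were activated with strontium chloride and cytochalasin D, so that the cells had a maternal genome only. They were taken through epiblast-like cells in activin A and bFGF and then held for 4 days with BMP4, LIF, SCF and EGF, and cells positive for SSEA1 and CD61 were sorted as PGCLCs. The E9.5 PGCs came from female embryos and were sorted by the same surface markers or by SSEA1 on magnetic beads. Female embryonic stem cells (ESCs), PGCLCs induced from them (ESC-PGCLCs), the pESCs themselves and PGCs of day 12.5 (E12.5 PGCs) had 2 libraries each and are given beside the comparison. Each PGCLC group is limited to the stem cell lines it was made from. The study describes its RRBS data as 2 biological replicates. Nothing in the labels tells how many embryos or cultures went into a library, so the spread between 2 libraries may be partly technical.

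Primordial germ cells are the precursors of eggs and sperm. On their way to the gonad they lose most of the DNA methylation that the epiblast had gained, first passively over much of the genome and later, with TET enzymes, at imprinted genes, at promoters of germline genes and on the inactive X. Imprinted genes are expressed from 1 parental copy because a control region carries methylation from the egg or, less often, from sperm, and a genome with no father is expected to carry the maternal marks on both copies. Some young retrotransposons, above all the intracisternal A particles (IAPs), are known to keep much of their methylation through this period.

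The libraries were checked first against their labels. Female and parthenogenetic cells carry no Y chromosome, yet 8 single-copy Y genes (Kdm5d, Uty, Usp9y, Ddx3y, Eif2s3y, Uba1y, Zfy1 and Zfy2) had levels for 12 of 15 features in each library labelled pESC-PGCLC and for all 15 in each E9.5 PGC library. The pESC and ESC libraries had a level for 1 of these features each, the intron of Zfy1. The intron of Uty, a histone demethylase gene, had 88.9% and 88.8% in E9.5 PGCs and 80.1% and 82.2% in the libraries labelled pESC-PGCLC. E12.5 PGC and ESC-PGCLC libraries had 12 to 15 of the 15 features. The amount of Y DNA cannot be read from levels, and its part in the results below was not tested. Since all 4 compared libraries carried it, no result can be given without it, and "pESC-PGCLC" below means the libraries so labelled.

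Between 147279 and 152509 features had a level in each of the 4 libraries, and the read depth behind the levels is unknown. Replicates differed on average by 2.65 points in pESC-PGCLCs and by 2.44 points in E9.5 PGCs. Across features, the correlation of levels was 0.981 between the pESC-PGCLC libraries, 0.988 between the E9.5 PGC libraries and 0.965 to 0.969 across the groups. These correlations describe features of the same libraries, which are not independent. Of the germ cell markers Prdm1, Prdm14, Tfap2c, Nanos3, Dnd1, Dppa3, Kit, Itgb3 and Fut4, the promoters of Tfap2c, Nanos3, Dppa3, Kit and Itgb3 had levels. The promoter of Tfap2c, a transcription factor of germ cell specification, had 2.44% and 2.28% in E9.5 PGCs and 1.90% and 2.65% in pESC-PGCLCs. That of Itgb3, which encodes the sorted marker CD61, had 2.47% and 2.83% against 2.22% and 2.61%. Promoter methylation is not expression and does not by itself identify a cell type.

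The sequences that the results below turn on are given here, 5′ to 3′ on the strand of the gene, in lower case with CpG sites in capitals, since CpGs are the sites that the level counts. The promoters of Zfp42 and Ddx4 stand for pluripotency and germline genes with large falls, that of Dazl for a germline gene with a smaller fall, and those of Zrsr1 and Mest for imprinted genes that carry maternal methylation. The 250 bases before the gene start are shown, taken from RefSeq on GRCm38.p6. The promoter window of the deposited levels is not stated and may differ. The CpG island windows are the island that fell the most, the central 300 bases of an island that rose and the central 300 bases of an island that stayed high, read from the plus strand of GRCm38. The windows lie at chr8:43307010-43307259 (minus strand) for Zfp42, chr13:112652311-112652560 (minus) for Ddx4, chr17:50293621-50293870 (minus) for Dazl, chr11:22971755-22972004 (plus) for Zrsr1 and chr6:30737800-30738049 (plus, 1 of 3 RefSeq starts) for Mest. The islands lie at chr4:149457289-149457560, chr5:119796528-119796827 and chr3:62158999-62159298.
Zfp42 promoter: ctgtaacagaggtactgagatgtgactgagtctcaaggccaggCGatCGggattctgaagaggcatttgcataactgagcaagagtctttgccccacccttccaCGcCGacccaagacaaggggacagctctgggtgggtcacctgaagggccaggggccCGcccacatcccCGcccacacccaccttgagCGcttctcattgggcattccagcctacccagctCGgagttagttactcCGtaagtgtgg
Ddx4 promoter: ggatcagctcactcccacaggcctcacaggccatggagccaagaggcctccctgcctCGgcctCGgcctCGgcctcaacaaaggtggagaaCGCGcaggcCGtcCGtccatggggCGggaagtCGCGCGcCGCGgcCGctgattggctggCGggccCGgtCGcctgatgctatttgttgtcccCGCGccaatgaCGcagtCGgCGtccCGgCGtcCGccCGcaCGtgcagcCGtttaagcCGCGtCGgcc
Dazl promoter: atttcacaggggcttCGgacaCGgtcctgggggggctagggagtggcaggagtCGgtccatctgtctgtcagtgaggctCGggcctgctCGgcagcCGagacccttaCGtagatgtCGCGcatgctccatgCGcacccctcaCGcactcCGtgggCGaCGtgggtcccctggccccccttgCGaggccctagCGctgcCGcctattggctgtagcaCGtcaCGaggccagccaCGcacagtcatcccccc
Zrsr1 promoter: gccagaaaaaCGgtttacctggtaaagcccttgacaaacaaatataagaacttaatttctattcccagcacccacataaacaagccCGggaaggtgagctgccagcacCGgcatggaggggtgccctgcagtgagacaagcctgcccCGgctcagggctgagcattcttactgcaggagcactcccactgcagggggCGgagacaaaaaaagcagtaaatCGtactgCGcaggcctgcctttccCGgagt
Mest promoter: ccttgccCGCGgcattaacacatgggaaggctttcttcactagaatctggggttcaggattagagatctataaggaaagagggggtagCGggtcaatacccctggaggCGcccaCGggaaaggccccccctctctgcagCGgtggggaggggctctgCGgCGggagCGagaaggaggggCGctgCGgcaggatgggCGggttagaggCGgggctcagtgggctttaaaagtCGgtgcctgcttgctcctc
Island on chromosome 4 that fell: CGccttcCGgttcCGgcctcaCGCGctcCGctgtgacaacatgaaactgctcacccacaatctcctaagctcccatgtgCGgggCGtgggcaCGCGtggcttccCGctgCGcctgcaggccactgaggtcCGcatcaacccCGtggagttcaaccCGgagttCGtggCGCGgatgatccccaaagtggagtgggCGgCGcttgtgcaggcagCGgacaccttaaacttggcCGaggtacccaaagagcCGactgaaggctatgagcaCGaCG
Island on chromosome 5 that rose: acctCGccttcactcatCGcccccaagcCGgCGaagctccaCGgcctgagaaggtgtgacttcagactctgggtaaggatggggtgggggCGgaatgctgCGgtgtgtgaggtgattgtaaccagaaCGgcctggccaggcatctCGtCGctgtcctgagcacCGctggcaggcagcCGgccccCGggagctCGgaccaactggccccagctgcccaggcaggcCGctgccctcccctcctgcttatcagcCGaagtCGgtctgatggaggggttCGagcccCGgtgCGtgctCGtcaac
Island on chromosome 3 that stayed high: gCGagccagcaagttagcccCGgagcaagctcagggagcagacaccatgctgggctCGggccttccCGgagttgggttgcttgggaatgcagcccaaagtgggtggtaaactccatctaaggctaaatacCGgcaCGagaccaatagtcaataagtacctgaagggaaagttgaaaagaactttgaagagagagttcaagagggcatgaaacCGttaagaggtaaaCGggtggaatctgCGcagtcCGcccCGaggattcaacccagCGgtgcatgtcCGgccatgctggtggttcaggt

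The Ddx4 window held 31 CpGs and the Dazl window 20, against 9 in Zfp42, 8 in Zrsr1 and 14 in Mest. MspI cuts at CCGG. This site was found 2 times in the Ddx4 window, 4 times in that of Zrsr1 and not at all in those of Zfp42, Dazl and Mest. Which CpGs the deposited promoter levels rest on cannot be read from these windows. In 300-base windows around the start (250 bases before, 50 after), CCGG was found for 55.2% of 27025 RefSeq genes. The E-box CACGTG, the same on both strands, was found in 13 of the 37 germline genes with a window (35.1%), against 8.09% of all genes. Its share in the other gene lists used below was from 0% (somatic lineage genes) to 21.1% (maternally expressed imprinted genes). Among the 27 germline genes with a window that were called lower, 8 had it (29.6%). TGCCGC or its reverse complement GCGGCA was found in 9 of 16 paternally expressed imprinted genes (56.2%) and 13.1% of all genes. In the other gene lists used below it ranged from 13.5% (germline genes) to 42.1% (maternally expressed imprinted genes). A match is a description of the letters and not of binding.

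The libraries labelled pESC-PGCLC were less methylated than E9.5 PGCs over most of the methylated genome. The mean level over the 142249 features was 28.7% and 28.3% in pESC-PGCLCs (28.5% ± 0.281, SD, n = 2) and 37.7% and 37.4% in E9.5 PGCs (37.6% ± 0.168, SD, n = 2). The groups did not overlap, and the gap of 8.72 points between their nearest libraries exceeded the spread within either group. The difference of the means was -9.04 points, and the pESC-PGCLC mean was 75.9% of the E9.5 mean. The exact two-sided permutation test over the libraries gave p = 0.333 for this and every other 2 against 2 comparison of means below, the smallest value that such a design allows. In the same features the mean was 24.9% and 25.3% in E12.5 PGCs, 30.5% and 30.1% in ESC-PGCLCs and 24.5% and 23.6% in pESCs. The pESC-PGCLC libraries lay between the 2 ages of PGC and above the pESC libraries.

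Feature by feature, 56496 of 142249 were called, which means a limma Benjamini-Hochberg adjusted p under 0.05 and group means at least 10 points apart. Of these 56291 were lower in pESC-PGCLCs, 39.6% of all features tested, and 205 were higher, 0.144% of them. The median feature differed by -7.56 points, or by -0.60 on the log2 odds scale of the test. Centring took the median level of a library away from all its levels. The library medians differed by -12.8 points between the groups, further than the median feature, so centring overshot this shift. Falls smaller than 12.8 points as deposited thus became rises in centred points. Direction and the 10-point minimum were read from centred points, while the adjusted p came from log2 odds that were centred separately. A direction after centring is therefore one in points and need not be that of the log2 odds. After centring the calls numbered 37518 for a higher level in pESC-PGCLCs and 10356 for a lower one. The features higher after centring had a median level of 2.11% in E9.5 PGCs and 2.18% in pESC-PGCLCs, and thus moved little as deposited. Directions below are those of the levels as deposited.

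The fall was found in every class. CpG islands, which are mostly unmethylated, had a mean of 7.48% in E9.5 PGCs and 5.60% in pESC-PGCLCs. 5′ untranslated regions went from 7.78% to 5.99%, promoters from 24.8% to 18.3%, and island shores from 22.8% to 16.6%. Exons went from 34.1% to 24.8% and introns from 42.6% to 31.4%. The largest difference of means, -16.0 points, was in 3′ untranslated regions, which had 60.9% and 44.9%, and repeat elements had 64.8% and 50.9%. Islands were called lower at 6.45% of 13892, promoters at 27.1% of 19244, introns at 54.6% of 19154, 3′ untranslated regions at 71.6% of 4018 and repeats at 59.8% of 40112. In each of the 8 classes the pESC-PGCLC mean lay between the E9.5 and the E12.5 mean, the latter being 5.40% in islands, 16.2% in promoters, 27.4% in introns and 44.8% in repeats.

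**Figure D1:**
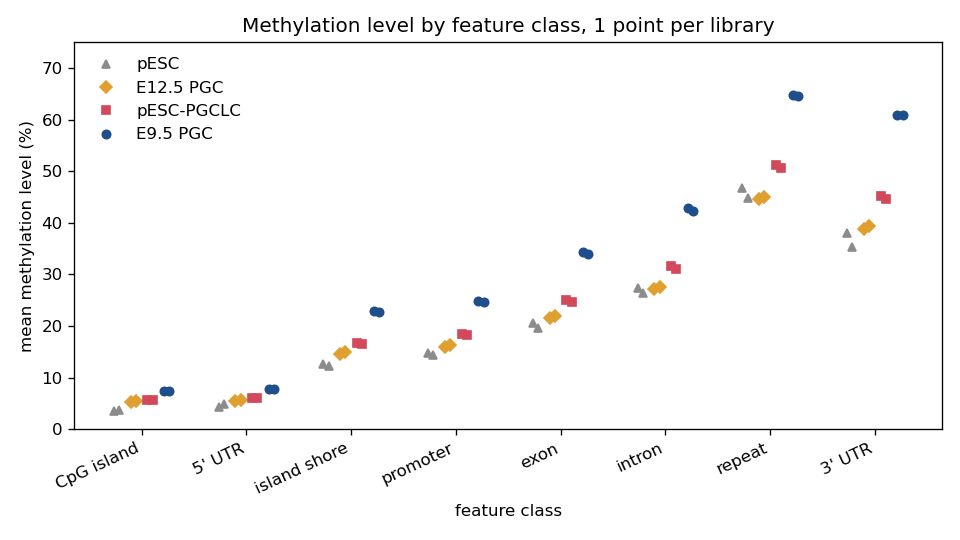
Mean methylation level in percent by feature class, with 1 point for each library of pESCs, E12.5 PGCs, pESC-PGCLCs and E9.5 PGCs. The pESC-PGCLC points lie below the E9.5 PGC points in all 8 classes, from 5.60% against 7.48% in CpG islands to 50.9% against 64.8% in repeats.

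The share of the E9.5 PGC level found in pESC-PGCLCs, called the share kept, differed between levels. Features were sorted by E9.5 PGC replicate 1 and the share kept was computed against E9.5 PGC replicate 2, so that the sorting values were not reused. The 20835 features under 2% kept 98.9% of their level, and the share was lowest, 69.3%, in features of 20% to 30%. It was 77.1% in the 2801 features from 90% to 100%, whose mean was 92.9% in E9.5 replicate 2 and 72.0% and 71.2% in the pESC-PGCLC libraries. Among features of 20% or more in E9.5 PGCs the median share kept was 75.1%.

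**Figure D2:**
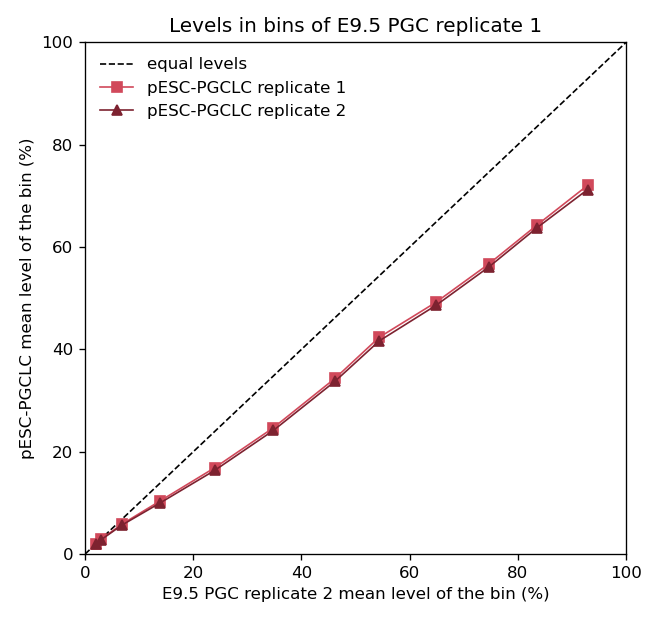
Mean level of the 2 pESC-PGCLC libraries (vertical axis, percent) against that of E9.5 PGC replicate 2 (horizontal axis, percent) in bins of E9.5 PGC replicate 1, 1 point per bin and library, with a dashed line at equal levels. Bins of low level lie on the line and all others under it, the top bin at 72.0% and 71.2% against 92.9%.

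Introns of every autosome and of the X had a lower mean in pESC-PGCLCs. Over introns, the difference of the means ranged from -10.2 points on chromosome 18 to -12.1 points on chromosome 10, and the share kept from 71.7% on chromosome 11 to 77.4% on the X. The X chromosome as a whole, over 2689 features outside repeats, had 36.8% and 36.6% in E9.5 PGCs and 27.7% and 27.4% in pESC-PGCLCs, a difference of -9.11 points. Autosomal features had 26.7% and 26.5% against 19.7% and 19.4%.

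CpG islands of the X are of interest because an inactive X carries methylation at its islands. The 357 islands on the X had 22.8% and 23.0% in E9.5 PGCs and 16.3% and 16.5% in pESC-PGCLCs, while the pESC libraries had 3.74% and 3.97%. The 13527 autosomal islands had 7.05% and 7.04% in E9.5 PGCs, 5.32% and 5.27% in pESC-PGCLCs, and 3.43% and 3.75% in pESCs. X islands stood above autosomal islands in both germ cell groups, by more than the spread between libraries, while the pESC means of the 2 sets were within 1 point. Of 351 X islands with all values, 88 had under 5% in both pESC libraries and 20% or more in both E9.5 PGC libraries. Among X islands 45 were called lower in pESC-PGCLCs than in E9.5 PGCs (12.6%, against 6.25% of autosomal islands) and 1 higher. Of islands with 20% or more in E9.5 PGCs, 44 of 149 on the X (29.5%) and 832 of 925 on autosomes (89.9%) were called lower. Their median share kept was close, 69.3% on the X and 65.7% on autosomes. A call needs 10 points and so depends on the level. Over all features 24.8% were called lower at 20% to 30% in E9.5 PGC replicate 1 and 85.1% at 80% to 90%. The 2 sets of islands were not matched by level.

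Of 22 listed genes of X inactivation and X-linked dosage 16 had a promoter level, and 2 were called lower (12.5%, against 27.1% of all promoters) and none higher. Of the 7 with 20% or more in E9.5 PGCs these 2 were 28.6%, against 72.8% of all promoters with 20% or more. The median share kept was 67.8% in the 7 and 72.0% in all promoters with 20% or more. The 2 sets were not matched by level, on which calls depend. Hprt, a purine salvage enzyme and a classic gene silenced on the inactive X, had 28.1% and 28.9% in E9.5 PGCs, and the pESC-PGCLC libraries 14.8% and 13.3% (limma adjusted p = 0.00631), against a mean of 5.30% in pESCs. The ubiquitin ligase gene Mid1, which spans the boundary of the pseudoautosomal region, had 51.7% and 52.1% and then 38.9% and 39.6% (limma adjusted p = 0.00202), with a mean of 33.7% in pESCs. After centring Hprt was no longer called and Mid1 turned to a small rise.

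Genes that mark germ cell identity and pluripotency differed little at the median, by -1.10 points against -1.24 points for all promoters, but some of them fell far. Of 35 listed genes 24 had a promoter level and 8 were called lower (33.3%, against 27.1% of all promoters), and none was called higher. The 8 were all those with 20% or more in E9.5 PGCs, and of all 7136 promoters at that level 72.8% were called lower. Dppa3 (Stella), which protects maternal methylation in the zygote and is an early mark of PGCs, had 67.1% and 69.8% in E9.5 PGCs and 28.1% and 24.8% in pESC-PGCLCs. The pESC-PGCLC mean of Dppa3 was 38.7% of its E9.5 PGC mean (limma adjusted p = 0.000317), with a difference on the log2 odds scale of -2.54 (SE 0.13). Zfp42 (Rex1), a pluripotency marker, had 65.4% and 63.8% and then 27.7% and 30.2%. Its window, printed above, held only 9 CpGs. In both genes the E9.5 libraries stood far above the others, for the pESC means were 2.59% and 1.48% and the E12.5 means 33.7% and 30.8%.

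Dppa2, a chromatin factor of early embryos, had 70.5% and 69.1% in E9.5 PGCs and 45.1% and 42.7% in pESC-PGCLCs. The homeobox gene Rhox9 on the X had 79.3% and 80.9% and then 54.3% and 52.1%. Pou5f1 (Oct4), the central pluripotency factor, had 24.8% and 24.7% and then 11.98% and 11.88% (limma adjusted p = 0.000852). Kit, the receptor for SCF that germ cells need to migrate, had 45.3% and 52.2% and then 39.3% and 28.3%, a wide spread that still passed the test (limma adjusted p = 0.0277). Rhox6 and Tcl1 completed the 8. At the other end Tfap2c, Sox2, Klf4 and Sall4 had under 6% in all 4 libraries. With each library centred on its median, 4 promoters of the list were called lower and 10 higher, and Pou5f1 was no longer lower.

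Germline genes, which are silenced by promoter methylation in somatic cells and open in PGCs, fell further at the median than promoters in general. Of 80 listed genes 44 had a promoter level, 32 were called lower (72.7%, against 27.1% of all promoters) and none higher, and 10 remained lower with 3 higher after centring. The median difference was -18.3 points, against -1.24 points for all promoters. The list is rich in methylated promoters, and 32 of its 35 members with 20% or more in E9.5 PGCs were called lower (91.4%), against 72.8% of all promoters at that level. Among promoters with 20% or more the median difference was -20.9 points in the list and -15.9 points in all promoters. Their median shares kept were close, 69.8% and 72.0%. The mean of the 44 promoters was 55.9% and 54.5% in E9.5 PGCs, 39.1% and 38.0% in pESC-PGCLCs and 36.0% and 35.2% in E12.5 PGCs. An intron level was present for 61 of the 80 listed genes, and 50 were called lower (82%, against 54.6% of all introns). Those 50 were among 57 with 20% or more in E9.5 PGCs (87.7%, against 77.4% of all introns at that level).

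**Figure D3:**
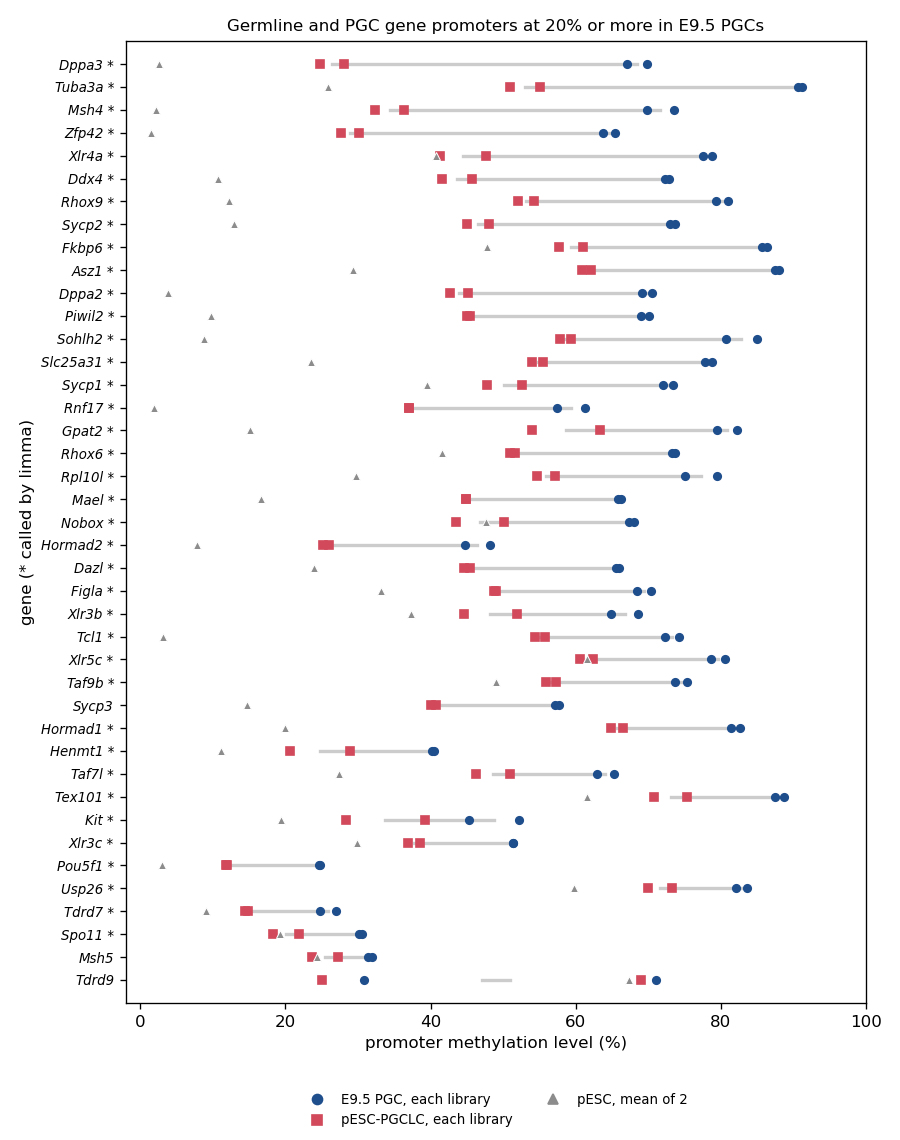
Promoter methylation level in percent of germline and PGC identity genes with 20% or more in E9.5 PGCs, with points for each E9.5 PGC and pESC-PGCLC library, a triangle for the pESC mean, a line between the group means and an asterisk for called genes. The groups overlap at Tdrd9 alone, and the largest difference is at Dppa3, with 28.1% and 24.8% against 67.1% and 69.8%.

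Among the genes of the piRNA and germ granule machinery, Ddx4 (Vasa), an RNA helicase of germ granules, had 72.3% and 72.9% in E9.5 PGCs and 45.6% and 41.6% in pESC-PGCLCs (adjusted p = 0.000319, limma). Mael, which acts in transposon silencing, had 65.9% and 66.3% and then 44.9% and 44.8%. Piwil2, a PIWI protein, had 70.1% and 69.0% and then 45.4% and 44.98%. Asz1, a germ granule protein, stayed among the higher ones with 60.8% and 62.1% after 87.5% and 88.0%. In these genes the libraries of a group lay close together and the groups far apart. Tdrd9, an RNA helicase of the same pathway, did not show this, since its replicates read 71.1% and 30.8% in E9.5 PGCs and 69.0% and 25% in pESC-PGCLCs, and it was not called.

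Genes of meiosis followed. Msh4, a mismatch repair homologue needed for crossovers, had 69.8% and 73.5% in E9.5 PGCs and 32.4% and 36.4% in pESC-PGCLCs, close to its E12.5 mean of 34.1%. Dazl, the RNA-binding protein that licenses germ cells for meiosis, had 65.6% and 66.0% and then 44.7% and 45.4% (limma adjusted p = 0.000384). Sycp1 and Sycp2, parts of the synaptonemal complex, had 73.4% and 72.0%, and 72.9% and 73.6%, in E9.5 PGCs. In pESC-PGCLCs Sycp1 had 47.8% and 52.6% and Sycp2 48.1% and 45.1%. Hormad1, which sits on unsynapsed axes, kept 80.1% of its level with 66.5% and 64.9% after 82.6% and 81.4%. Sycp3 had 57.1% and 57.7% and then 40% and 40.7% with no overlap, but was not called (limma adjusted p = 0.699). Its ESC-PGCLC libraries, which enter the shared estimate of spread, were 12.5% and 90%. Spo11, the enzyme that makes meiotic breaks, had 30.2% and 30.5% and then 18.3% and 21.8%, a fall that centring reversed.

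Of the oocyte transcription factors Figla, Nobox and Sohlh2 were called lower. Figla had 70.4% and 68.4% in E9.5 PGCs and 48.7% and 49.0% in pESC-PGCLCs, Nobox had 68.1% and 67.4% and then 50.1% and 43.5%, and Sohlh2 had 80.7% and 85.0% and then 57.8% and 59.3%. Lhx8 was not called, with 2.06% and 2.10% and then 2.32% and 2.76% (adjusted p = 0.358, limma). The largest fall of the list was in Tuba3a, a testis tubulin gene, from 91.1% and 90.6% to 51.0% and 55.1%. The 9 listed promoters under 20% in E9.5 PGCs, Tex15, Lhx8 and Tdrd5 among them, had group means of 1.56% to 13.4% in E9.5 PGCs and 2.54% to 9.83% in pESC-PGCLCs. In 28 of 35 germline promoters of 20% or more both pESC libraries lay below both pESC-PGCLC libraries, and in none above. Of all 6865 promoters at that level with a pESC value, 59.9% lay below and 11.4% above.

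Imprinted genes were compared in 2 lists. Promoters of paternally expressed genes, whose silent copy is the maternal one, had levels for 21 of 32 listed genes. Their mean was 41.2% and 42.5% in E9.5 PGCs and 33.5% and 33.7% in pESC-PGCLCs, a difference of -8.27 points, with a mean of 29.7% in pESCs and 13.5% in ESCs. The test called 11 promoters lower (52.4%, against 27.1% of all promoters) and none higher, and with centring 2 were lower and 9 higher. The 11 were among 15 with 20% or more in E9.5 PGCs (73.3%, against 72.8% of all promoters at that level). Zim3, a zinc finger gene of the Peg3 domain, fell from 79.3% and 79.8% to 49.7% and 50.3%. Plagl1 (Zac1), a growth regulator, had 53.5% and 59.7% and then 37.9% and 37.7% (limma adjusted p = 0.0077), with 23.7% in pESCs and 1.05% in ESCs.

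Zrsr1, a splicing factor retrogene in an intron of Commd1, had 51.2% and 50.1% in E9.5 PGCs and 37.0% and 36.6% in pESC-PGCLCs (adjusted p = 0.000975, limma). Its pESC libraries had 40.3% and 40.1% and its ESC libraries 1.65% and 1.91%. Peg10, a retrotransposon-derived placental gene, had 50.9% and 54.8% and then 41.8% and 40.5%, a fall that centring reversed. Inpp5f, a phosphatase gene, had 61.0% and 56.7% and then 47.3% and 48.3%, and centring reversed it as well. At Zrsr1 and Inpp5f the pESC-PGCLC libraries lay below the pESC mean and at Peg10 above it. The introns of the list were called lower in 10 of 18, against 54.6% of all introns. Over the 15 paternally expressed promoters of 20% or more, both pESC libraries lay below both pESC-PGCLC libraries in 8 (53.3%, against 59.9% of all promoters at that level) and above them in 5 (33.3%, against 11.4%).

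A few imprinted promoters did not fall. Snrpn and Snurf, which share a control region on chromosome 7 and overlap each other, had higher values in pESC-PGCLCs, though without passing the test. Snrpn had 59.2% and 66.5% in E9.5 PGCs and 66.2% and 69.99% in pESC-PGCLCs (adjusted p = 0.335, limma), and the groups overlapped. Its pESC libraries had 82.8% and 83.2% and its ESC libraries 34.5% and 44.8%. Peg13, a non-coding RNA inside the Trappc9 gene, had 56.2% and 59.8% and then 65.3% and 66.7% (limma adjusted p = 0.0356), a difference of 7.96 points that missed the 10-point minimum. Peg13 had no level in ESC-PGCLCs, so that 6 libraries entered its fit. The intron of Snrpn had 54.3% and 55.3% and then 59.6% and 59.7% (limma adjusted p = 0.184). Mest, a hydrolase gene, had 48.6% and 49.0% and then 45.2% and 38.7% (limma adjusted p = 0.189).

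**Figure D4:**
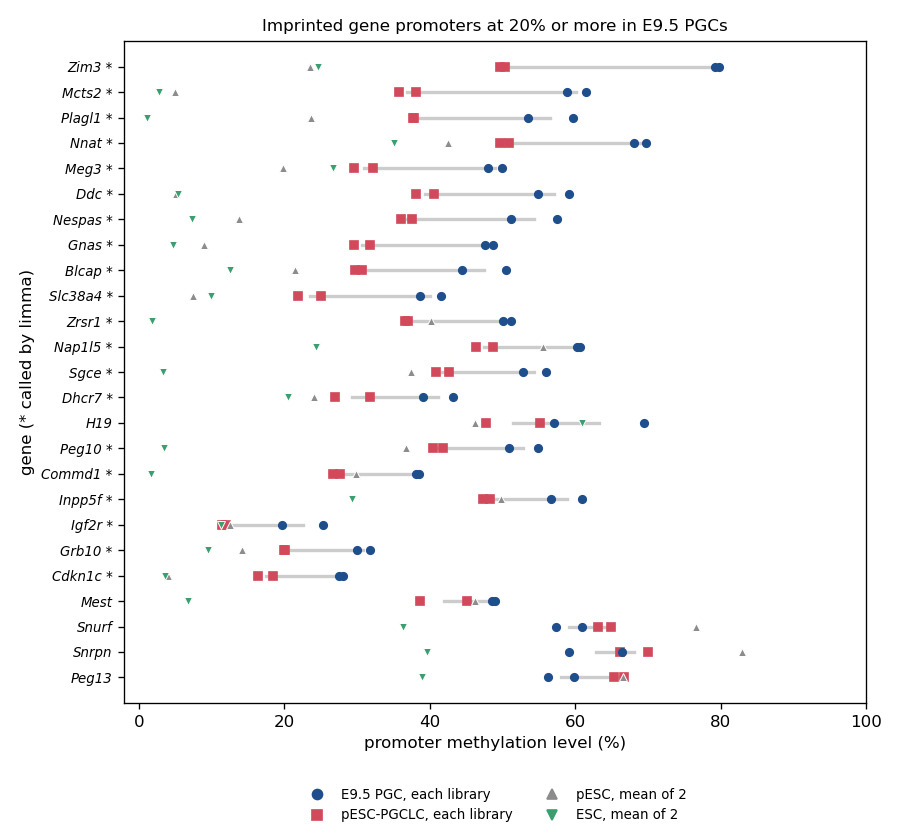
Promoter methylation level in percent of imprinted genes with 20% or more in E9.5 PGCs, with points for each E9.5 PGC and pESC-PGCLC library, triangles for the pESC and ESC means, a line between the group means and an asterisk for called genes. Snurf, Snrpn and Peg13 at the bottom are the genes with a higher mean in pESC-PGCLCs, and Zim3 at the top has the largest fall.

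Promoters of maternally expressed genes had levels for 24 of 36 listed genes. Their mean was 20.4% and 20.04% in E9.5 PGCs and 14.4% and 14.0% in pESC-PGCLCs. The test called 9 promoters lower (37.5%, against 27.1% of all promoters) and none higher, whereas after centring 9 were higher and none lower. The 9 were among 10 with 20% or more in E9.5 PGCs, where 72.8% of all promoters were called lower. Meg3, a non-coding RNA whose silent paternal copy is methylated, had 48.0% and 50.0% and then 29.6% and 32.2% (limma adjusted p = 0.000634). Gnas, a G protein subunit gene, had 48.7% and 47.5% and then 29.6% and 31.7%. Commd1, the host gene of Zrsr1, had 38.1% and 38.5% and then 27.6% and 26.6%, with 29.9% in pESCs and 1.67% in ESCs, and centring reversed it. Igf2r, a growth factor receptor with a maternal control region in its intron, had 25.4% and 19.7% at its promoter and then 11.4% and 11.98%, which centring also reversed. At its intron Igf2r had 55.7% and 65.1% and then 49.1% and 50.1% (limma adjusted p = 0.0533). H19, a non-coding RNA beside Igf2, had 69.4% and 57.1% and then 55.2% and 47.8%, which was not called (limma adjusted p = 0.0985).

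Of the genes that write, read and erase methylation, 25 of 31 had a promoter level, 7 were called lower (28%, against 27.1% of all promoters) and none higher, and with centring 2 were lower and 8 higher. Besides Dppa3 they included Mbd3, a member of the NuRD complex, which had 88.2% and 89.97% in E9.5 PGCs and 64.8% and 66.5% in pESC-PGCLCs. Dnmt3l, the cofactor of de novo methylation, had 64.3% and 64.9% and then 51.7% and 50.2%. Dnmt3a, a de novo enzyme, had 42.9% and 36.2% and then 26.1% and 26.6%. Dnmt1, the maintenance enzyme, had 21.0% and 18.0% and then 14.0% and 13.5%, under the 10-point minimum. Uhrf1, its partner, and Tet1, Tet2 and Tet3, the oxidising enzymes, stayed under 8% in all 4 libraries.

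Somatic lineage genes were listed as marks of other cells that a sort could hold, and most of their promoters had under 10% in both groups. Of 32 listed genes 22 had a promoter level, the median difference was 0.0321 points and 2 were called lower (9.09%, against 27.1% of all promoters). These were the endothelial genes Pecam1, with 64.1% and 65.2% and then 50.4% and 41.5%, and Cdh5, with 67.1% and 66.8% and then 52.3% and 52.2%. They were 2 of the 3 listed promoters with 20% or more in E9.5 PGCs (66.7%, against 72.8% of all promoters at that level). The mean of the 22 promoters was 12.9% and 13.6% in E9.5 PGCs and 10.4% and 10.04% in pESC-PGCLCs. Centring turned the split to 13 higher and none lower.

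Repeat families differed in the share of the E9.5 PGC level found in pESC-PGCLCs. Over all repeat features the pESC mean, 45.8%, was below the pESC-PGCLC mean of 50.9%. Repeat features were pooled by element name and consensus position and have no place in the genome. All 241 element names with 20 or more features were lower in both pESC-PGCLC libraries than in both E9.5 PGC libraries. The IAPs, endogenous retroviruses that still move in mice, kept the most. The mean of their internal parts was 77.4% and 77.1% in E9.5 PGCs and 68.0% and 67.4% in pESC-PGCLCs, 87.7% of the level, and 260 of 646 features were called lower (40.2%, against 59.8% of all repeat features). Their long terminal repeats had 80.4% and 79.7% and then 67.5% and 66.7%. The related ETn and MusD elements kept 83.8% of their level.

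Of the families MIR kept the least, 73.3%. The short elements B4, B1 and B2 kept 73.9%, 74.0% and 74.6%. The long element family L2 and the ERVL family lay in the same range, with 73.9% and 74.5%. Young L1 elements, the long retrotransposons, differed among themselves. L1MdA had 65.1% and 65.0% in E9.5 PGCs and 54.3% and 53.5% in pESC-PGCLCs and kept 82.8%, while L1MdTf had 71.7% and 71.6% and then 55.3% and 54.9% and kept 76.9%. Their shares were furthest apart in the first 1500 consensus bases, which hold the promoter, where L1MdA kept 83.2%, L1MdGf 78.5% and L1MdTf 75.7%. Beyond base 4500 they kept 82.4%, 82.0% and 82.1%. Of single elements L1MdTf_I kept 71.1%, from 74.7% and 74.9% to 53.3% and 53.1%, and IAPEz-int kept 88.7%, from 81.2% and 80.7% to 72.1% and 71.5%.

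**Figure D5:**
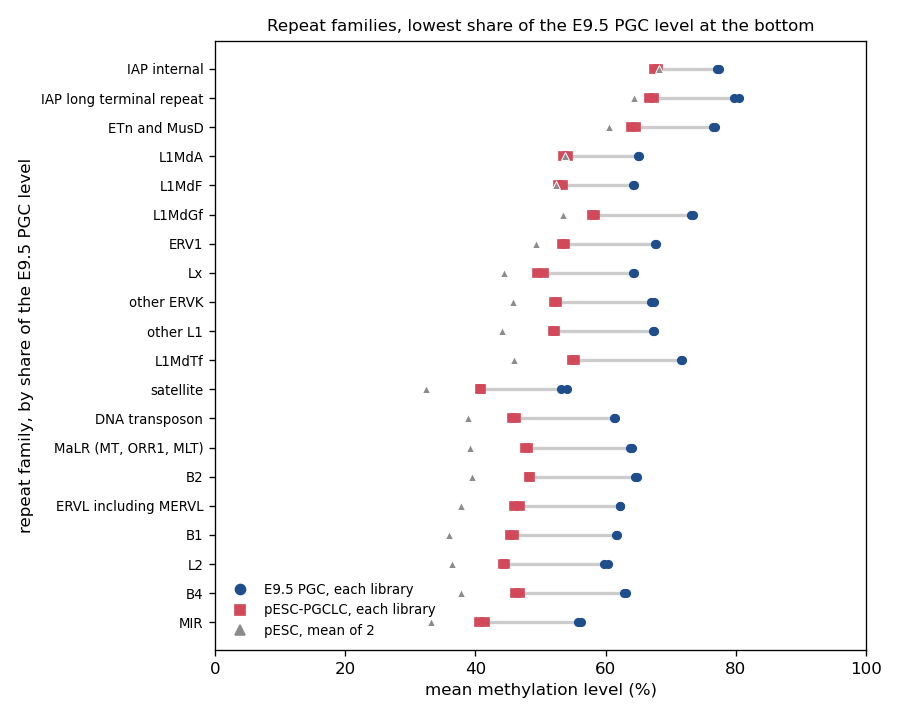
Mean methylation level in percent by repeat family, with points for each E9.5 PGC and pESC-PGCLC library, a triangle for the pESC mean and a line between the group means. IAP internal parts keep 87.7% of their E9.5 PGC level and MIR elements 73.3%, and the pESC points of L1MdA and IAP internal parts lie on those of pESC-PGCLCs.

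The place of the pESC mean differed between families. It was 68.3% in IAP internal parts, above both pESC-PGCLC libraries, and 53.8% in L1MdA, between them. In IAP long terminal repeats it was 64.4% and in ETn and MusD elements 60.5%, where the pESC-PGCLC libraries had 64.6% and 63.9%. In these 2 families, in L1MdTf, where it was 45.9%, and in every other family it lay below both pESC-PGCLC libraries. In B1 elements, for example, the pESC mean was 35.9% and the pESC-PGCLC libraries had 45.9% and 45.3%. After centring, 3941 repeat features were called lower and 1115 higher.

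Single repeat features could differ far more than their family. A stretch of L1MdGf_I had 96.4% and 98.2% in E9.5 PGCs and 19.09% and 10.7% in pESC-PGCLCs, and one of L1MdA_I had 98.5% and 97.4% and then 25.2% and 28.4%. A stretch of the old element MLT1A0 had 100% and 94.5% and then 24.2% and 20.8%. These were the 3 largest falls called among repeats. The 3 largest rises were in B1_Mur2, with 0% and 46.2% and then 100% in both, in IAPEz-int, listed at 0 in both E9.5 PGC libraries and then 54.9% and 51.5%, and in L2a, with 0% and 1.43% and then 54.4% and 44.3%. These features had E9.5 PGC levels far from the mean of their family, and their depth is unknown.

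The single features with the largest falls lay outside the lists. The deposited levels 100% and 0 can rest on few reads, and their depth is unknown. An intron feature of Rc3h2, a ubiquitin ligase that limits inflammatory transcripts, had 84.1% and 93.0% in E9.5 PGCs and 13.8% and 16.6% in pESC-PGCLCs, with 3.17% in pESCs. The exons of Syt3, a synaptotagmin, had 76.3% and 87.5% and then 10.8% and 11.2%. The intron of Tcaf2, a regulator of an ion channel, had 100% and 93.3% and then 28.1% and 15.4%. The 3′ untranslated region of Setd1a, a histone methyltransferase, had 100% in both E9.5 libraries and then 38.9% and 0%, in a fit with 5 of the 8 germ cell libraries. Spsb3 and Nubp2 are neighbours on chromosome 17 that start close to each other, so their promoter levels may share sites. Spsb3 had 90.4% and 78.6% and then 10.5% and 18.3%, and Nubp2 had 86.6% and 80% and then 14.3% and 23.4%. Ccr6, D16Ertd472e, Zfp106 and the pseudogene Trmt112-ps2 were the others of the 10.

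The island printed first above overlaps Trmt112-ps2, a processed pseudogene on chromosome 4, whose reads may be shared with its parent gene. It had 86.0% and 83.0% in E9.5 PGCs and 14.7% and 17.0% in pESC-PGCLCs, and no E12.5 library had a level there, so that 6 libraries entered its fit. The islands chr6:90905568-90905941, at Ppp1r2-ps2, and chr5:101937339-101937555, in Wdfy3, fell from 94.0% and 93.9% to 51.9% and 43.4%, and from 88.5% and 100% to 58.3% and 29.2%.

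Only 205 features were called higher in pESC-PGCLCs, 18 of them promoters (0.0935% of promoters). Their mean was 14.6% in E9.5 PGCs and 35.4% in pESC-PGCLCs, values that the calls fixed. Their mean was 41.4% in pESCs, 41.5% in ESCs and 15.2% in E12.5 PGCs, which is given as a description, since low E9.5 values chose the features. The promoter of Cyp2c38, a cytochrome P450 gene, had 0% and 10% in E9.5 PGCs and 75.4% and 61.3% in pESC-PGCLCs (adjusted p = 0.0325, limma), with 77.5% in pESCs. The intron of Epb42, an erythrocyte membrane gene, was listed at 0 in both E9.5 libraries and had 43.7% and 48.1% in pESC-PGCLCs and 58.9% in pESCs. Acadl, a fatty acid oxidation enzyme, had 2.68% and 1.91% at its intron and then 36.4% and 36.6%. Dph6, a diphthamide synthesis enzyme, had 2.11% and 5.83% at its intron and then 45.4% and 44.3%. Ctso, a cathepsin, was an exception, as its 5′ untranslated region had 5.88% and 6.25%, then 31.3% and 50.0%, but 4.17% in pESCs. Mir6396, Klhdc2, Csn3, Fdxacb1 and Hsd17b7 were the others of the 10 genes with the largest rises. Mir6396 also had a lower mean in pESCs (48.4%) than in E9.5 PGCs (52.7%).

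Of the islands that rose, chr5:119796511-119796843, which overlaps no gene, had 5.17% and 3.76% in E9.5 PGCs and 26.3% and 19.9% in pESC-PGCLCs, with a mean of 56.6% in pESCs. An island in Klhl13, a ubiquitin ligase adaptor gene on the X, at chrX:23364639-23364890 and 163 bp from its start, had 6.64% and 3.17% and then 14.4% and 16.8%, with 0.191% in pESCs. It was the 1 feature on the X called higher. The pseudogene island chr14:89898191-89899068 was the third.

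Islands that stayed methylated were also sought. The 439 autosomal islands with 50% or more in all 4 libraries had 84.9% and 85.0% in E9.5 PGCs and 60.5% and 60.2% in pESC-PGCLCs. Of these, 422 were called lower (96.1%, against 89.9% of autosomal islands with 20% or more in E9.5 PGCs). The 5 with the highest pESC-PGCLC mean, chosen by that value, lay in Disp1, Hcn2, Pced1c-ps and Gm8888 and at chr3:62158816-62159480, which overlaps no gene. That last island had 86.2% and 85.9% in E9.5 PGCs, 80.6% and 79.4% in pESC-PGCLCs and 79.1% and 75.5% in pESCs.

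Features on which pESCs and E9.5 PGC replicate 1 were at least 40 points apart are described without a test, since these values chose them. In 10593 features pESCs were the lower, with 20.7% and 19.2%, and E9.5 replicate 2 had 72.9%. The pESC-PGCLC libraries had 48.0% and 47.7%. In 79 features pESCs were the higher, with 56.6% and 52.3% against 9.11%, and pESC-PGCLCs had 22.6% and 21.6%.

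The libraries labelled pESC-PGCLC were also compared directly with those labelled ESC-PGCLC, in the same fit. Of 138035 features with levels in both, 130 were called, 60 higher and 70 lower in pESC-PGCLCs (0.0942%), while 26604 had an unadjusted p under 0.05. The count depended on the scale of the test, being 1276 (1115 lower) with an offset of 0.1, 1770 (1591 lower) on untransformed levels and 19 with 4 libraries. None of the promoters in the 7 gene lists was called. The count moved with single libraries, being 341 and 34 without ESC-PGCLC replicates 1 and 2, and 32 and 37 without pESC-PGCLC replicates 1 and 2. Of the 55392 features called against E9.5 PGCs that could be tested here, 107 were called, 47 higher and 60 lower. Beside each other, the means over all features were 28.7% and 28.3% in pESC-PGCLCs and 30.5% and 30.1% in ESC-PGCLCs, both below the E9.5 PGC libraries they share as reference. At Snrpn the ESC-PGCLC libraries had 48.5% and 56.7%, against 66.2% and 69.99% in pESC-PGCLCs. At Zrsr1 they had 32.8% and 33.9%, against 37.0% and 36.6%. The 3′ untranslated region of Hoxd3, a homeobox gene of axial patterning, was 1 of 3 features called higher than both. It had 10% and 10.5% in E9.5 PGCs and 40.2% and 24.3% in pESC-PGCLCs, whereas ESC-PGCLCs were listed at 0.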

How the data were processed

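RRBS levels were used for 12 libraries in 6 groups of 2, grouped by sample title. According to the study and the submitters' processing notes, the authors aligned reads to mm10 with Bismark 0.16.3 and Bowtie2, took methylated over all CpG calls and corrected for non-conversion. The deposited unit is the methylation fraction of a feature, printed here as percent. Coverage minimum and promoter definition are not given in the sources used here. The levels come without read counts, so their depth is unknown and neither intervals nor floors are given.

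The 142249 features with a level in the 4 compared libraries were tested with limma 3.58.1 (R 4.3.3) on log2((level + 0.01) / (1 - level + 0.01)). The 8 PGC and PGCLC libraries, of which 137202 features had all, shared the spread. Adjustment was by Benjamini-Hochberg over all features, and a call also needed 10 points. Means were compared by exact permutation (scipy 1.17.1), p at least 0.333 with 2 against 2. On simulated levels of 20000 features, 98, 162 and 191 of 200 shifted features were recovered at shifts of 1, 2 and 4 log2 odds. The false calls numbered 4, 6 and 5. Only features of intermediate level were shifted, equally in both directions, whereas nearly all calls in the data were lower.

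The comparison and the gene lists were chosen with earlier results of these data known. Named genes were list members, the 10 genes and 3 islands with the largest called falls and rises, and the 5 autosomal islands highest in pESC-PGCLCs among those with 50% or more in all 4 libraries. Gene names and spans came from the mouse annotation of GRCm38 and sequences from RefSeq. RefSeq had no promoter entry for Dppa3. Python 3.11.15, pandas 2.3.3, numpy 2.4.6 and matplotlib 3.10.9 were used for the rest. Alternatives varied the offset, scale, centring, libraries, feature filter, variance model, thresholds, replicate block and each replicate.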

Additional observations from a re-analysis of the deposited data

Results flagged for a closer look

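Levels on the Y chromosome went against the labels. Of 15 features of 8 single-copy Y genes, 12 had a level in pESC-PGCLC replicate 1 and 12 in pESC-PGCLC replicate 2, against 1 in each pESC library, the group that the study names as their source. All 12 features of these libraries were also present in both E9.5 PGC libraries. Where the Y DNA came from was not tested.

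The difference from E9.5 PGCs was not the same in the 2 kinds of PGCLC at every feature. By limma's contrast of pESC-PGCLCs with ESC-PGCLCs, 130 features had an adjusted p under 0.05 and a difference of at least 10 points.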

How the results depend on the processing

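The 56496 calls against E9.5 PGCs became 50406 to 52981 when each replicate was left out in turn and ranged from 51111 to 71718 under the other alternatives that kept the direction, except that a minimum of 20 points left 19661 calls. Centring gave 47874, of which 37518 were higher, by its construction. Of 44 germline promoters, 13 were called with centring and 21 with 20 points, and of the repeat features 5056 and 7595. Centring also reversed the balance of calls in the lists, giving 11 paternally expressed, 9 maternally expressed, 14 PGC identity, 13 somatic, 10 methylation machinery and 2 X inactivation promoters.

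In centred points, which are not the log2 odds scale of the test, the promoters of Sgce (0.154 points), Spo11 (2.46), Grb10 (1.96), Igf2r (1.95), Pou5f1 (0.0181), Mid1 (0.112), Tdrd7 (1.58), Cdkn1c (2.37), Inpp5f (1.76), Commd1 (1.63), Usp26 (1.54), Dhcr7 (1.02) and Peg10 (1.03) turned to a small rise. Of 100 named calls, 12 to 17 were lost without 1 replicate, 9 with all 12 libraries and 5 with 4 libraries. A minimum of 20 points lost 42, and centring lost 40 besides the 13 that turned.

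The comparison with ESC-PGCLCs was the least stable. Its 130 calls became 1276 with an offset of 0.1 (1115 lower), 1770 on untransformed levels (1591 lower), 19 with 4 libraries, 78 with 20 points and 32 to 341 when a replicate was left out. Centring gave 106, of which 77 were higher. The cause was not tested.

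Across features, the deviations of pESC-PGCLC 1 and E9.5 PGC 1 from their group means had a correlation of 0.0718. With 2 replicates the other pair gives the same value. This gave little sign that the replicate numbers pair the libraries. With the replicate block there were 56288 calls against E9.5 PGCs and 38 against ESC-PGCLCs, and the paired global difference was -9.04 points.

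The global difference was -9.24 to -8.84 points without 1 replicate, -12.8 points by medians, -7.13 without repeats and -8.36 over class means. With 2 libraries a group and unknown depth, differences under 10 points at single features, and features listed at 0% or 100%, have little support.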
